A study of Mus musculus with 48 samples.

Results

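Aldehyde dehydrogenases oxidise aldehydes to carboxylic acids, and 10 genes of this family were followed here: Aldh1a1, Aldh1a2, Aldh1a3, Aldh1a7, Aldh1b1, Aldh2, Aldh5a1, Aldh7a1, Aldh9a1 and Aldh3a2. They were taken by gene symbol from a table of 56893 genes, which lists 11 further aldehyde dehydrogenase genes. All 10 had enough counts to be tested, as did 17352 genes in all. Aldh1a1 was chosen because it carries the recombinase of the knockout mice, and the others to see whether any relative was higher where Aldh1a1 was lower.

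The data are messenger RNA sequencing of 1 brain hemisphere from each of 48 mice, in 12 groups of 4 given by sex, genotype and feeding state. Control mice were Grin1fl/fl, with loxP sites on both copies of Grin1 (the gene of an obligatory NMDA receptor subunit) and no recombinase; 1 control, female control unrestricted replicate 2, was Grin1fl/+. Knockout mice were Aldh1a1+/P2A-CreERT2::Grin1fl/fl, so that all knockouts carried 1 changed and 1 unchanged copy of Aldh1a1, and CreERT2, a recombinase active after tamoxifen, was made from the changed copy in cells that use the Aldh1a1 promoter. Unrestricted mice had been singly housed for about 48 h, restricted mice had been food-restricted on 2 nights with chow between them, and refed mice had after this had free access to grain pellets for 72 h. The mice were 5.5 to 8.5 months old. The labels used here give neither a tamoxifen dose nor where in Aldh1a1 the P2A-CreERT2 cassette lies, and every mouse with the cassette was also a Grin1 knockout with Cre. The effects of the cassette, of Cre and of the loss of Grin1 on a member therefore cannot be told apart. The labels say that each library is a separate mouse.

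Aldh1a1, Aldh1a2 and Aldh1a3 encode the retinaldehyde dehydrogenases, which make retinoic acid, the ligand of nuclear retinoic acid receptors. In the midbrain, Aldh1a1 marks a ventral group of dopamine neurons of the substantia nigra, where the enzyme is also known to clear the reactive aldehyde formed from dopamine and to make GABA from putrescine. The other members remove other aldehydes: Aldh2 and Aldh1b1 act in mitochondria on acetaldehyde and lipid-derived aldehydes, Aldh5a1 on succinic semialdehyde from GABA, Aldh9a1 on aminoaldehydes on the way to carnitine and GABA, Aldh7a1 in lysine breakdown, and Aldh3a2 on long-chain fatty aldehydes.

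Aldh1a1 lies on chromosome 19 of GRCm39 at 20469539 to 20622825 on the plus strand, with 13 exons in its canonical transcript. Aldh1a7, a rodent paralog, lies 44.3 kb further on, at 20667107 to 20704932 on the minus strand. Their coding sequences are each 1506 bases long and 91.6% identical, with 126 differing bases, while the other 8 members are between 57.0% and 70.9% identical to Aldh1a1. The last 90 coding bases are shown because reads from poly-A RNA of these genes can be told apart only where the genes differ. The 7 differing bases are in capitals, and both lines are read from the GRCm39 annotation.
Aldh1a1: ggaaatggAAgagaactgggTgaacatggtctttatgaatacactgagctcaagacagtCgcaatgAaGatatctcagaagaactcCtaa
Aldh1a7: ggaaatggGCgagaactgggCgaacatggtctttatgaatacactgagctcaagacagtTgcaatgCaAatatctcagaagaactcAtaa
The longest coding run that both genes share has 100 bases, from base 757 to base 856 of each coding sequence, and a read that lies wholly inside it fits both genes.
Shared coding run: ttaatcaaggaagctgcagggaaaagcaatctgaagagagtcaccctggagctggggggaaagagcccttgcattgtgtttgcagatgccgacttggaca
Over whole canonical transcripts, 281 of the 6151 31-base words of Aldh1a1 (4.57%) also occur in Aldh1a7, and 0 occur in any of the other 8 members. The deposited estimates for Aldh1a1 and Aldh1a7 lay within 0.069 counts of a whole number in every library, which does not show to which of the genes whole shared reads were given.

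Upstream of a start site of each gene, both also share an unbroken run of 65 bases, which is shown because the expression of the genes is compared further on. The lines give the 250 bases before that start site from the RefSeq promoter table on GRCm38.p6, with the shared run (bases -94 to -30) in capitals. That of Aldh1a1 is chr19:20601718-20601967 on the plus strand and that of Aldh1a7 is chr19:20727557-20727806 on the minus strand. The table lists 2 start sites for Aldh1a1, and the one shown, chosen for the shared run, lies 109.4 kb downstream of the other.
Aldh1a1 promoter: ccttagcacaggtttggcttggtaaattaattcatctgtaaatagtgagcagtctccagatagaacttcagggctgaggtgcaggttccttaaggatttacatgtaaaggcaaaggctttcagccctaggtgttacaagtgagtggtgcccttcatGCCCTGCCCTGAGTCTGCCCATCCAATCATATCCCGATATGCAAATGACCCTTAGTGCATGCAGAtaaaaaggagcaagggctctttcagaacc
Aldh1a7 promoter: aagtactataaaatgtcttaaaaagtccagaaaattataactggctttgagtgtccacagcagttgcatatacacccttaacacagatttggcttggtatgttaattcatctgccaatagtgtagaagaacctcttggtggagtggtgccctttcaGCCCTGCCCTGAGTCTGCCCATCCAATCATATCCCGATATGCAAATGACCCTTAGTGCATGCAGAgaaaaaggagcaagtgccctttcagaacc
The run holds the octamer ATGCAAAT and the letters CCAAT. Searched on both strands, the octamer occurred in 526 of 32544 promoters of the same table (1.62%) and CCAAT in 33.8%. Among members with a promoter searched, the octamer was found for Aldh1a1 (in 1 of the 2 listed), Aldh1a7 and Aldh1a2. No promoter of Aldh1a3, Aldh2 or Aldh7a1 was searched. These are matches of letters and no measure of binding.

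Library totals ranged from 7574827 to 16185373 counts with a median of 10515486. Levels are given as CPM, the counts of a gene scaled to a common library size. The targeted gene Grin1 was between 250.05 and 470 CPM in controls and between 307 and 410.3 CPM in knockouts. Its log2 difference was 0.02 (SE 0.04, adjusted p = 1.00, edgeR quasi-likelihood test), so no loss of Grin1 RNA was detected in a whole hemisphere. Whether Grin1 was lost from a group of cells was not tested. The defining dopamine neuron genes Th and Slc6a3 were present in every library, at 11.8 ± 2.76 and 11.2 ± 3.33 CPM (SD, n = 24) in controls. Markers of skeletal muscle (5 of 5 in the table) summed to 3920 CPM in male control refed replicate 1, to 239.8 CPM in female control restricted replicate 2 and to at most 19.6 CPM in the other 46 libraries. Male control refed replicate 1 also had the highest summed astrocyte markers (1420 CPM, 5 of 5 in the table) and the highest Aldh2, Aldh7a1 and Aldh3a2 of all libraries. Markers of the pituitary (5 of 5 in the table) summed to a median of 10.7 CPM in each genotype but reached 1244 CPM in a control and 1383 CPM in a knockout library, and their part in the results was not tested.

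Aldh1a1 was lower in knockouts than in controls for either sex under every feeding regime (6 combinations), with no overlap between the 4 knockouts and the 4 controls of any combination. Averaged over all combinations, its log2 difference was -0.92 (SE 0.05, 95% interval -1.03 to -0.81, adjusted p = 1.42e-16, edgeR quasi-likelihood test), and the knockout mean was 53.1% of the control mean. An exact halving is -1 on this scale, and the interval holds it. Controls had a mean level of 190 ± 27.3 CPM and knockouts of 101.0 ± 16.7 CPM (SD, n = 24 each), from 757 to 3053 counts per library. Of 17352 genes tested, Aldh1a1 was the only one with an adjusted p under 0.05 in this comparison (0.00576% of genes called), with 430 genes under an unadjusted p of 0.05. In bulk tissue, fewer cells that express a gene and less RNA per cell cannot be told apart.

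In unrestricted females, Aldh1a1 was at 197.8, 213.7, 232.9 and 215.0 CPM in the 4 controls and at 104.0, 104.6, 113.5 and 101.1 CPM in the 4 knockouts. In unrestricted males, the controls were at 180.4, 176.2, 170.2 and 190.9 CPM and the knockouts at 88.3, 112.3, 99.4 and 122.8 CPM. Controls of these 2 combinations lay close together, with an SD of 14.3 CPM around 214.8 in females and of 8.71 CPM around 179.4 in males. In restricted females, controls were at 188.1, 199.4, 214.8 and 194.3 CPM and knockouts at 130.2, 108.9, 85.3 and 147.1 CPM. In restricted males, controls were at 152.1, 151.3, 241.7 and 185.6 CPM and knockouts at 100.7, 110.0, 100.5 and 80.4 CPM. Restricted female knockouts were spread more widely than any other knockout group (SD 26.7 CPM), and among restricted male controls 1 library stood well above the other 3. In refed females, controls were at 154.9, 173.7, 181.6 and 182.1 CPM and knockouts at 91.3, 105.6, 97.7 and 92.1 CPM. In refed males, controls were at 218.0, 233.4, 179.7 and 138.8 CPM and knockouts at 80.1, 86.8, 82.6 and 79.0 CPM. Refed male controls were as widely spread as restricted ones (SD 42.3 against 42.5 CPM), whereas refed male knockouts had an SD of 3.48 CPM. Across all 48 libraries, 1 knockout (female knockout restricted replicate 4, 147.1 CPM) lay above the lowest control (male control refed replicate 4, 138.8 CPM).

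**Figure D1:**
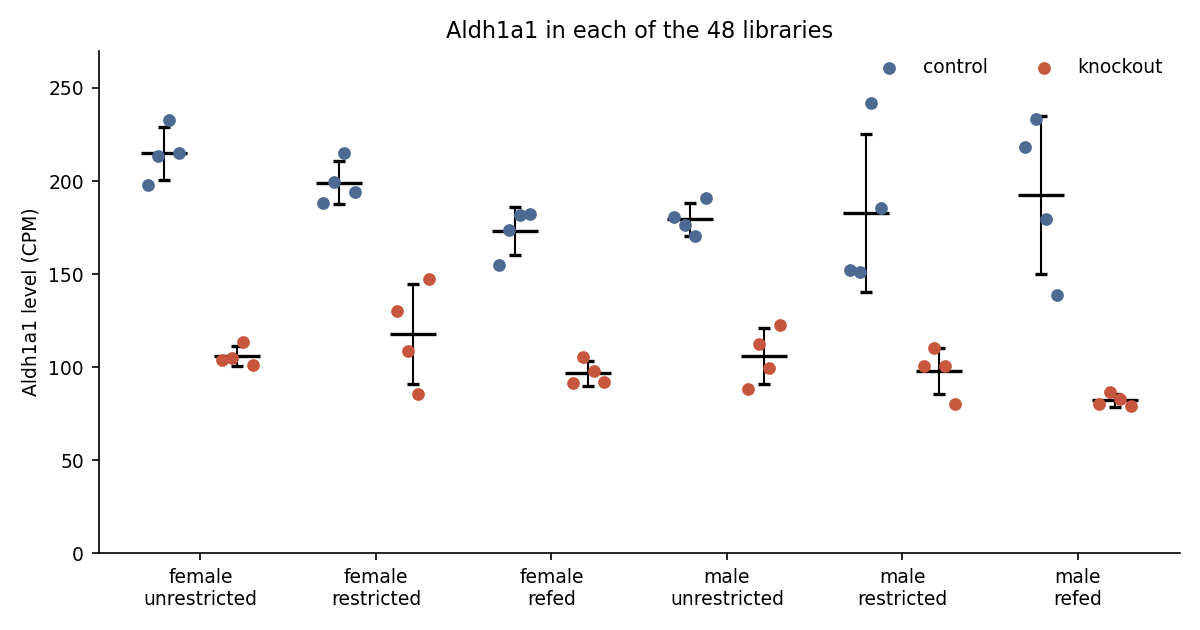
Aldh1a1 level in CPM (vertical axis, from 0) in every library, by sex and feeding state; points are libraries, blue for controls and red for knockouts, and the bars show the mean and SD of 4 libraries. In each of the 6 combinations the 4 knockouts lie below the 4 controls, with means between 82.1 and 117.9 CPM against 173.1 to 214.8 CPM.

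The log2 differences in the 6 combinations ranged from -0.76 to -1.23 (edgeR quasi-likelihood test on all 48 libraries). In unrestricted females the difference was -1.02 (95% interval -1.29 to -0.76, adjusted p = 1.84e-05), where 0.0115% of genes were called. It was -0.76 (-1.03 to -0.50, adjusted p = 0.0115) in unrestricted males, with 0.00576% of genes called. Restricted females had -0.76 (-1.02 to -0.49, adjusted p = 0.00635), where 0.386% of genes were called. The value in restricted males was -0.90 (-1.17 to -0.63, adjusted p = 0.000408), and in refed females it was -0.84 (-1.11 to -0.57, adjusted p = 0.00194), with 0.00576% of genes called in either. Refed males showed -1.23 (-1.50 to -0.96, adjusted p = 1.4e-07), where 0.225% of genes were called, all 39 of them lower in knockouts, the 5 muscle markers included; 1 gene was called without male control refed replicate 1. All 6 intervals held -1. Leaving out male control refed replicate 1, the library with muscle transcripts, gave -1.17 (adjusted p = 4.77e-06) in refed males, and leaving out the control with a single flanked Grin1 allele gave -1.03 (adjusted p = 0.000212) in unrestricted females.

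The calls in unrestricted males and restricted females were the less stable ones. In unrestricted males the difference lay between -0.84 and -0.69 when each of the 8 libraries was left out in turn. The adjusted p was then above 0.05 without male knockout unrestricted replicate 1, 2 or 3 (0.27, 0.0716 and 0.256) and without male control unrestricted replicate 1 or 4 (0.101 and 0.221). In restricted females the difference lay between -0.87 and -0.62, and the adjusted p was above 0.05 without female knockout restricted replicate 2 or 3 (0.0611 and 0.073) and without female control restricted replicate 3 (0.0808). Over all genes, the 67 calls in restricted females came down to 1 without any of these 3 libraries. The largest unadjusted p for Aldh1a1 among these refits was 3.91e-05. Averaged over all combinations, the difference stayed between -0.94 and -0.89 in all 48 refits and was called in each.

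**Figure D2:**
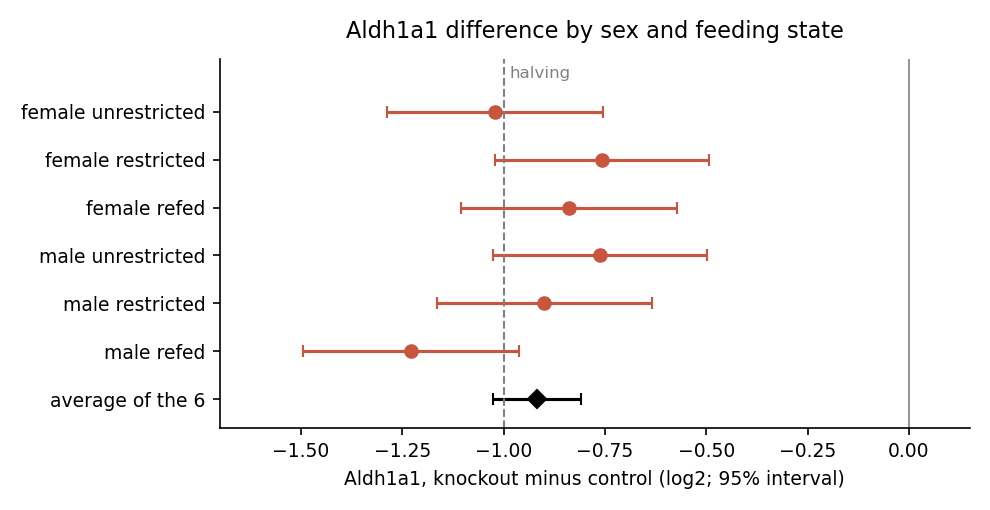
Log2 difference of Aldh1a1, knockout minus control (horizontal axis), with 95% intervals from the edgeR fit, for the 6 combinations (circles) and their average (diamond); the dashed line marks a halving (-1). All intervals reach the dashed line and none reaches 0, and estimates lie between -1.23 (refed males) and -0.76 (restricted females, unrestricted males).

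Whether the size of the Aldh1a1 difference depended on sex or feeding state was tested by interaction terms. The male-minus-female contrast of the difference was -0.09 (95% interval -0.31 to 0.13, unadjusted p = 0.403), the unadjusted p for dependence on feeding state was 0.287, and for dependence on both together it was 0.0541 (adjusted p = 0.615, edgeR quasi-likelihood test). No member was called in any of these tests, and over all genes edgeR called 0 (0%) by sex, 0 (0%) by feeding state and 0 (0%) for both together, with 887, 792 and 1426 genes under an unadjusted p of 0.05. DESeq2 called 1, 0 and 7 genes in these tests, none of them a member. Library numbers in the labels, which are not stated to be a batch, split the mice into those up to 28, which hold all refed mice, and those from 29. Up to number 28, controls averaged 179.4 ± 26.8 CPM of Aldh1a1 (SD, n = 13) and knockouts 95.8 ± 13.6 CPM (SD, n = 15). From 29, controls averaged 203.1 ± 22.6 CPM (SD, n = 11) and knockouts 109.7 ± 18.4 CPM (SD, n = 9), so the difference was present in both sets of libraries.

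None of the other 9 members was called in the genotype comparison, and their smallest unadjusted p was 0.0888 (edgeR). Only 0.00576% of all genes were called there, so the absence of calls alone is no result about these members. The median size of their log2 differences was 0.01, against 0.03 for all genes tested. Their summed level was 364.9 ± 28.5 CPM (SD, n = 24) in controls and 365.6 ± 17.4 CPM (SD, n = 24) in knockouts. With Aldh1a1 included, the 10 members summed to 555 ± 35.1 CPM in controls and 467 ± 21.6 CPM in knockouts, and the share that came from Aldh1a1 was 34.2 ± 4.01% and 21.6 ± 2.98%.

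The other retinaldehyde dehydrogenases were expressed far below Aldh1a1. Aldh1a2 ranged from 2.65 to 8.32 CPM with a median of 5.88 in controls, and from 4.73 to 10.3 CPM with a median of 6.23 in knockouts. Its log2 difference of 0.14 (95% interval -0.02 to 0.31, edgeR adjusted p = 1.00) was the largest upward estimate among the members. Aldh1a3 ranged from 0.437 to 1.56 CPM (median 0.890) in controls and from 0.431 to 1.68 CPM (median 0.922) in knockouts, from 4 to 20 counts per library. Its difference was -0.04 with a wide interval of -0.33 to 0.24.

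Aldh1a7, the neighbour that shares stretches with Aldh1a1, ranged from 0.341 to 1.48 CPM (median 0.767) in controls and from 0.216 to 1.28 CPM (median 0.653) in knockouts. Its log2 difference was -0.27 (95% interval -0.62 to 0.08, unadjusted p = 0.127). With only 2 to 19 counts per library, a change of a size inside this interval could not be told from 0. A halving (-1) lies outside the interval. When the counts of Aldh1a1 and Aldh1a7 were added together, all 8 results recomputed for Aldh1a1 kept their direction and their side of the threshold.

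Aldh2 and Aldh1b1 had intervals that held 0, the narrower one for Aldh2. Aldh2 ranged from 72.5 to 133.0 CPM (median 87.1) in controls and from 79.6 to 109.5 CPM (median 88.5) in knockouts, with a difference of 0.01 (-0.07 to 0.08). Its relative Aldh1b1 ranged from 4.61 to 8.04 CPM (median 6.02) in controls and from 3.72 to 8.81 CPM (median 6.61) in knockouts, with a difference of 0.05 (-0.08 to 0.18). In restricted females alone, Aldh2 was at 86.9, 83.8, 87.2 and 82.7 CPM in controls and at 109.5, 101.7, 102.5 and 89.6 CPM in knockouts. These 4 knockouts lay above the 4 controls, by 0.24 on the log2 scale (95% interval 0.06 to 0.43), but the difference failed the correction over all genes (unadjusted p = 0.0123, adjusted p = 0.236, edgeR). In this combination 2170 of 17352 genes (12.5%) had an unadjusted p under 0.05, so such a value was common there.

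Aldh5a1, Aldh9a1, Aldh7a1 and Aldh3a2, the enzymes of GABA, aminoaldehyde, lysine and fatty aldehyde breakdown, had the narrowest intervals of the members for genotype. Aldh5a1 ranged from 91.0 to 121.4 CPM in controls and from 93.7 to 127.0 CPM in knockouts, with a log2 difference of 0.00 (-0.06 to 0.06). Aldh9a1 was between 35.1 and 46.4 CPM in controls and between 32.4 and 44.03 CPM in knockouts, and its difference was 0.00 (-0.06 to 0.07). For Aldh7a1 the range was 59.1 to 94.1 CPM in controls and 59.2 to 82.7 CPM in knockouts, with a difference of -0.01 (-0.08 to 0.05). The genotypes overlapped almost wholly in each of these genes. Aldh3a2 lay between 37.9 and 53.7 CPM in controls and between 39.9 and 51.0 CPM in knockouts, with a difference of 0.00 (-0.05 to 0.06).

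**Figure D3:**
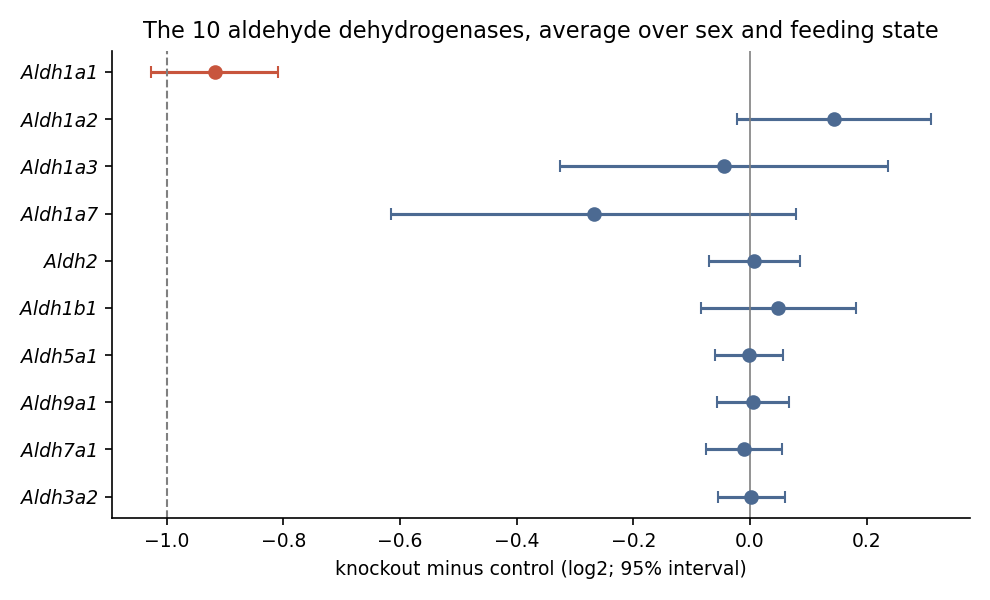
Log2 difference, knockout minus control (horizontal axis), averaged over sex and feeding state, with 95% intervals from the edgeR fit for the 10 members; red marks the gene called and the dashed line a halving. Aldh1a1 stands at -0.92, and the intervals of the other 9 genes all include 0, widest for Aldh1a7 (-0.62 to 0.08) and Aldh1a3 (-0.33 to 0.24).

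Genes next to Aldh1a1 were examined, since the cassette changes this locus. Within 1 Mb of Aldh1a1, 34 genes are annotated in GENCODE M39 and 7 of them were tested. None was called by edgeR or DESeq2, and 0 had an unadjusted p under 0.05 in edgeR, with log2 differences from -0.27 (Aldh1a7) to 0.02 (Anxa1, the gene of the phospholipid-binding protein annexin). For genotype, edgeR called 0.00576% of all genes and 2.48% had an unadjusted p under 0.05. The absence of calls is therefore no result about these neighbours. The long noncoding RNA C730002L08Rik lies on the opposite strand and overlaps Aldh1a1. It was at 5.68 CPM in controls and 5.57 CPM in knockouts, a log2 difference of -0.02. Since the strand setting of the counting is not given in the sources used here, reads of this gene and of Aldh1a1 may not have been told apart where they overlap.

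Divided by the length of the canonical transcript, Aldh1a1 was the most abundant member in controls, at 30.7 ± 4.40 CPM per kb (SD, n = 24). Next came Aldh2 at 21.9 ± 2.82, Aldh5a1 at 18.6 ± 1.33, Aldh7a1 at 18.4 ± 1.95, Aldh3a2 at 14.7 ± 1.19 and Aldh9a1 at 13.5 ± 1.04 CPM per kb. Far lower were Aldh1b1 at 2.55 ± 0.416, Aldh1a2 at 2.17 ± 0.495, Aldh1a3 at 0.235 ± 0.0816 and Aldh1a7 at 0.152 ± 0.0607 CPM per kb. The ranges of neighbours in this order overlapped except between Aldh9a1 and Aldh1b1 and between Aldh1a2 and Aldh1a3. In knockouts Aldh1a1 was at 16.3 ± 2.69 CPM per kb, below Aldh2, Aldh5a1 and Aldh7a1. On coding length, which leaves out the long untranslated parts of Aldh1a1, it stayed first in both genotypes, at 126.3 and 67.1 CPM per kb, with Aldh5a1 next at 66.9 CPM per kb in controls and 66.8 in knockouts. By transcript length in controls, Aldh1a7 was thus the least abundant member and Aldh1a1 the most abundant one. Both have the same 65 bases before a start site, but which start site of Aldh1a1 was used was not tested.

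**Figure D4:**
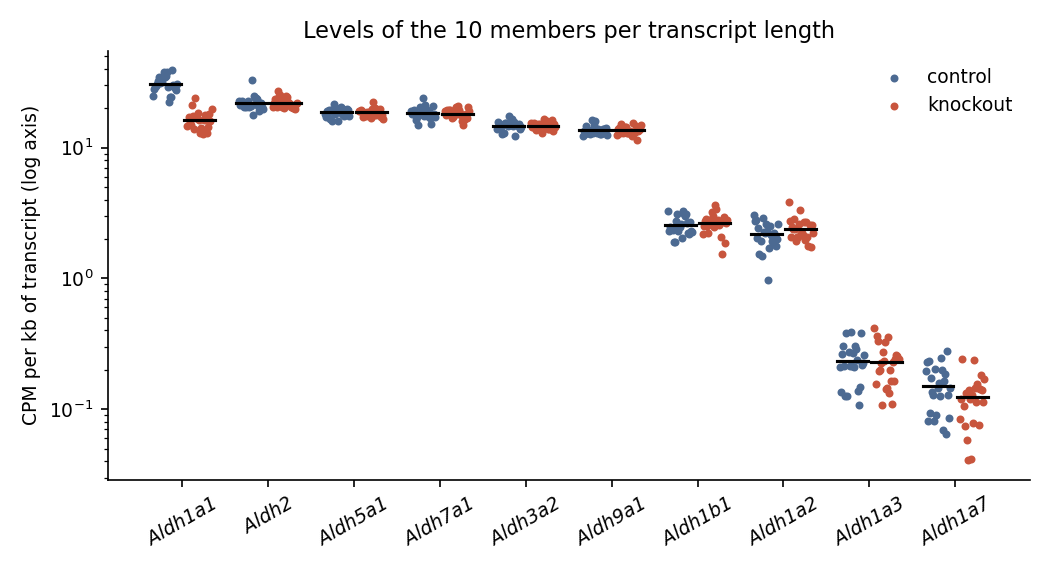
Level per kb of canonical transcript (vertical log axis, CPM per kb) of the 10 members in all 48 libraries, blue for controls and red for knockouts; lines are means of 24 libraries. Aldh1a1 falls from the top of the order (30.7) to the level of Aldh7a1 (18.2) and Aldh3a2 (14.7) in knockouts, at 16.3, while the other members lie at like levels in both genotypes.

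For feeding state 3 members were called, with estimates smaller in size than that of Aldh1a1 for genotype. The sizes were not compared by a test. After food restriction Aldh1a3 and Aldh7a1 were lower than in unrestricted mice, and after refeeding Aldh7a1 and Aldh3a2 were higher than in restricted mice. These calls have to be read beside the background: 15.2% of all genes were called for restricted against unrestricted and also 15.2% for refed against restricted, which is near the 2 of 10 members called in either comparison. Both comparisons use the same 16 restricted libraries, so a low value there enters both.

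Aldh7a1, the enzyme of lysine breakdown, ranged from 66.8 to 82.6 CPM (median 71.4) in unrestricted, from 59.1 to 76.7 CPM (median 67.0) in restricted and from 69.4 to 94.1 CPM (median 75.5) in refed mice. The 3 states overlapped, with restricted mice lowest. The log2 difference was -0.13 (SE 0.04, adjusted p = 0.0233) for restricted against unrestricted and 0.18 (SE 0.04, adjusted p = 0.000792) for refed against restricted (edgeR quasi-likelihood test). The rise after refeeding was seen in 4 of 4 combinations of sex and genotype, from 0.03 to 0.26, and was called in all 48 refits without 1 library. Without the library with muscle transcripts it was 0.16 (adjusted p = 0.00169). The fall with restriction was seen in 3 of 4 combinations, and was lost without male control unrestricted replicate 2 (adjusted p = 0.0543) and when genes with low counts were kept (adjusted p = 0.0588).

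Split by library number, the fall of Aldh7a1 with restriction was seen from number 29 on, at 75.0 ± 5.73 CPM (SD, n = 11) unrestricted and 63.9 ± 3.66 CPM (SD, n = 9) restricted. Up to number 28 it did not hold, with 70.1 ± 2.18 CPM (SD, n = 5) unrestricted and 72.0 ± 4.70 CPM (SD, n = 7) restricted. Refed mice, all of them up to number 28, were at 76.5 ± 6.15 CPM (SD, n = 16). With the library number as an added term the restriction difference was -0.13 (adjusted p = 0.024) and the refeeding difference 0.17 (adjusted p = 0.00881).

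Aldh3a2, the fatty aldehyde dehydrogenase, ranged from 39.9 to 50.5 CPM (median 45.9) in unrestricted, from 37.9 to 48.1 CPM (median 43.03) in restricted and from 42.7 to 53.7 CPM (median 46.8) in refed mice. Restricted mice were again lowest, and the states overlapped. Refed mice were higher than restricted ones by 0.13 (SE 0.03, adjusted p = 0.00698, edgeR), in 4 of 4 combinations (0.09 to 0.18) and in all 48 refits without 1 library. Without male control refed replicate 1 the difference was 0.12 (adjusted p = 0.0148). With the library number as an added term it was 0.10 (adjusted p = 0.113), and up to number 28 the means were 44.1 ± 2.11 CPM (SD, n = 7) restricted and 47.4 ± 2.91 CPM (SD, n = 16) refed.

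Aldh1a3 ranged from 0.578 to 1.56 CPM (median 1.00) in unrestricted, from 0.431 to 1.54 CPM (median 0.663) in restricted and from 0.540 to 1.68 CPM (median 1.07) in refed mice. Most restricted libraries were low, but 1 of them (female control restricted replicate 3, 1.54 CPM) reached the top of the other states. The log2 difference was -0.52 (SE 0.17, adjusted p = 0.0322) for restricted against unrestricted and 0.49 (SE 0.17, adjusted p = 0.0509) for refed against restricted. The first was seen in 4 of 4 combinations (-0.65 to -0.34) and in both sets of library numbers, at 1.13 against 0.790 CPM up to 28 and 1.01 against 0.672 CPM from 29. It was not called with DESeq2 (adjusted p = 0.0533), with genes of low counts kept (adjusted p = 0.101), or in 8 of the 48 refits without 1 library. Those 8 were without male control unrestricted replicate 1, male control restricted replicate 2, female control unrestricted replicate 3, female knockout unrestricted replicate 3, female knockout restricted replicate 4, male knockout restricted replicate 2, or female control restricted replicate 2 or 4. Their adjusted p lay between 0.0503 and 0.0613.

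**Figure D5:**
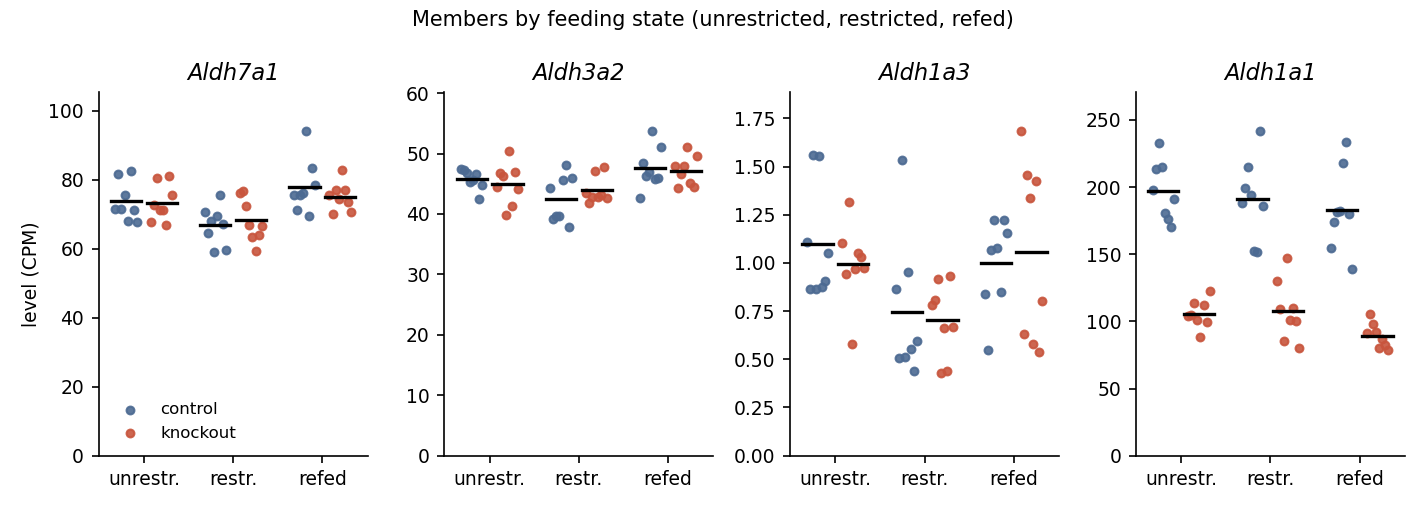
Levels in CPM (vertical axes, from 0) of Aldh7a1, Aldh3a2, Aldh1a3 and Aldh1a1 in unrestricted, restricted and refed mice; points are libraries, blue for controls and red for knockouts, and lines are means of 8 libraries. The feeding states overlap in each gene, with medians of 71.4, 67.0 and 75.5 CPM for Aldh7a1, while Aldh1a1 separates by genotype in each state.

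The remaining members were not called for feeding state. Of the 9 members other than Aldh1a1, 8 had a lower estimate in restricted than in unrestricted mice (median 0.09 in size, against 0.08 over all genes) and 9 had a higher one in refed than in restricted mice (median 0.18 in size, against 0.09 over all genes). Aldh1a1 itself was at -0.01 (95% interval -0.14 to 0.12) for restricted against unrestricted and at -0.16 (-0.30 to -0.03, adjusted p = 0.0817) for refed against restricted. The latter was called without male control refed replicate 2, male control restricted replicate 2, female knockout restricted replicate 3 or male knockout restricted replicate 4 (adjusted p from 0.0269 to 0.0477), and was -0.05 (adjusted p = 0.721) with the library number as a term. Without male control refed replicate 1 it was -0.18 (adjusted p = 0.0619). Refed against unrestricted mice, 0 members and 0.738% of all genes were called, with Aldh1a1 (-0.18, unadjusted p = 0.0103) and Aldh2 (0.12, unadjusted p = 0.0115) under an unadjusted p of 0.05. In this comparison 2255 of 17352 genes had an unadjusted p under 0.05 in edgeR, so such a value was common. By DESeq2 and with genes of low counts kept, 0 members were called as well. Without male control refed replicate 2, Aldh2 was called at 0.15 (edgeR adjusted p = 0.0206), and 677 genes were called in place of 128. Without male control refed replicate 1, where Aldh2 was highest, it was at 0.08 (edgeR adjusted p = 0.432).

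Markers of several cell types moved with feeding state beside these members. Summed microglia markers (4 of 4 in the table) were at 114.4 ± 11.3 CPM in restricted and 139.4 ± 8.63 CPM in refed mice (SD, n = 16 each), and all 4 were called higher in refed mice. Astrocyte markers summed to 973 ± 74.4 and 1077 ± 99.5 CPM, with Aqp4 and Gja1 called. Markers of meninges and fibroblasts (8 of 8 in the table), cells known for Aldh1a2 expression, summed to 67.9 ± 7.98 and 79.4 ± 13.3 CPM, with 5 called. Those of red cells (5 of 5) summed to 495 ± 151.7 and 1284 ± 493 CPM, with 5 called. No marker of these lists was at 0 over a whole feeding state. Over all genes, 15.2% were called for refed against restricted. The part of these cell types in the changes of the members was not tested.

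Between the sexes, 0 members and 0.357% of all genes were called by edgeR. For a sex difference in the feeding change, edgeR likewise called 0 members and 0% of all genes, and DESeq2 called 1 gene, no member. In edgeR 1101 genes had an unadjusted p under 0.05, and Aldh2 was the member among them (unadjusted p = 0.0359). DESeq2 and edgeR with genes of low counts kept also called 0 members in both tests. Between the sexes, 3117 of 17352 genes had an unadjusted p under 0.05 in edgeR, Aldh1a1 and Aldh1a2 among them, so such a value was common there. Aldh1a1 was lower in males by 0.12 on the log2 scale (95% interval for male minus female -0.23 to -0.01, unadjusted p = 0.027, adjusted p = 0.22, edgeR). Aldh1a2 had a male-minus-female difference of -0.21 (-0.37 to -0.04, unadjusted p = 0.0161, adjusted p = 0.187). Summed markers of oligodendrocytes were at 12878 ± 2006 CPM in females and 11366 ± 1909 CPM in males, and those of meninges and fibroblasts at 76.9 ± 11.01 and 68.8 ± 10.9 CPM (SD, n = 24 each), and their part in these estimates was not tested.

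Among the other genes of the family, 9 of 11 were tested and 0 were called for genotype (edgeR, with 0 under an unadjusted p of 0.05, and 0 by DESeq2). Over all genes, edgeR called 0.00576% for genotype, and 15.2% for restricted against unrestricted and for refed against restricted. Aldh6a1, which acts in valine and thymine breakdown, was the only one of the 9 that edgeR called for feeding state. It was at 62.5 ± 3.60 CPM in unrestricted, 74.8 ± 7.26 CPM in restricted and 67.8 ± 4.17 CPM in refed mice (SD, n = 16 each). It rose with restriction by 0.26 (adjusted p = 2.11e-06) and fell by 0.14 on the log2 scale with refeeding (adjusted p = 0.00779, edgeR), the opposite direction to Aldh7a1.

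Of 30 genes of retinoid uptake, synthesis, breakdown and reception, 22 were tested and 0 were called for genotype by edgeR or DESeq2, with 12 estimates above 0 and 10 below and a median of 0.00. 1 of them was under an unadjusted p of 0.05, against 2.48% of all genes, of which 0.00576% were called for genotype by edgeR. With restriction 4 of the 22 were called and with refeeding 3, where 15.2% of all genes were called in either comparison, so the counts are near the background and no result about the list. The receptor genes Rxrg (-0.37, adjusted p = 0.0015) and Rarg (-0.19, adjusted p = 0.0405) fell, while Rxra (0.20, adjusted p = 0.00456) and the retinol dehydrogenase gene Rdh13 (0.13, adjusted p = 0.0266) rose (edgeR). Refed against restricted mice, the 3 called genes were higher: Rdh5, a retinol dehydrogenase (0.33, adjusted p = 0.014), Dhrs4, a retinal reductase (0.21, adjusted p = 0.0478), and Cyp26b1, which degrades retinoic acid (0.23, adjusted p = 0.0415).

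Of 10 tested genes that make, transport or oxidise dopamine or reduce its aldehyde, 0 were called for genotype by edgeR or DESeq2 and 0 were under an unadjusted p of 0.05 in edgeR, and 8 had estimates below 0 with a median of -0.04. Th, the rate-limiting enzyme of dopamine synthesis, was at 11.8 ± 2.76 CPM in controls and 10.996 ± 2.37 CPM in knockouts, and the dopamine transporter gene Slc6a3 at 11.2 ± 3.33 and 10.9 ± 2.40 CPM (SD, n = 24 each). Ddc, the decarboxylase that makes dopamine, rose with restriction by 0.49 (adjusted p = 0.000295), and Maob, a monoamine oxidase, rose with refeeding by 0.18 (adjusted p = 0.00594, edgeR). Of 7 genes of GABA synthesis, uptake and breakdown, 0 were called for genotype by edgeR or DESeq2 and 0 were under an unadjusted p of 0.05 in edgeR. Slc6a11, a GABA transporter gene of astrocytes, fell with restriction (-0.15, adjusted p = 0.0471) and rose with refeeding (0.32, adjusted p = 1.5e-05, edgeR). Over all genes, edgeR called 0.00576% for genotype, so 0 genotype calls are no result about either list. For restriction and for refeeding it called 15.2% of all genes in either comparison.

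The genes whose levels followed Aldh1a1 most closely within groups were sought last. After subtraction of group means, over 48 libraries, the highest correlations of log2 CPM with Aldh1a1 among all genes tested were those of S100b (r = 0.80), Klhl4 (0.79), Fnta (0.78), Mtfr1 (0.78) and Ttc33 (0.78). S100b encodes a calcium-binding protein of glia and Fnta a subunit of protein farnesyltransferase. The 99th percentile over all genes was 0.65. The 5 genes were chosen on the same libraries that the next values use. In controls alone (n = 24) r was 0.90 for S100b, 0.82 for Klhl4, 0.89 for Fnta, 0.83 for Mtfr1 and 0.85 for Ttc33, and in knockouts alone (n = 24) it was 0.68, 0.75, 0.66, 0.73 and 0.69. The 99th percentile over all genes was 0.79 in controls alone and 0.61 in knockouts alone, and in controls alone Klhl4 ranked 89 and Mtfr1 63 among all genes. All genes of a library share its depth and cell composition, so these values are a description.

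Among the members themselves, the closest pair over the same 48 libraries was Aldh2 and Aldh7a1 (r = 0.72), followed by Aldh5a1 with Aldh7a1 and with Aldh3a2 (0.43 each). Aldh1a1 had a correlation of 0.26 with Aldh9a1 and values from -0.37 (Aldh1b1) to -0.03 (Aldh1a7) with the other 8 members.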

How the data were processed

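Poly-A RNA of 1 hemisphere per mouse was sequenced, 1 library each. The authors deposited estimated counts (expected counts) per gene symbol, which were made from the reads without scaling between libraries. The submitters' processing notes name fastp, STAR, Salmon and the build mm39, with no role or version. The annotation and strand setting are not given in the sources used here. Counts were rounded (no library total moved by more than 51.1), filterByExpr (minimum count 10, minimum total 15) took out low genes and left 99.9% of counts, and libraries were scaled with TMM. The quasi-likelihood model of edgeR 4.0.16 (R 4.3.3) had 1 coefficient per group over all 48 libraries. P-values were adjusted over all genes tested with the Benjamini-Hochberg method and called under 0.05. The code was tested on simulated data. CPM used TMM factors, and log2 CPM a prior count of 2.

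Groups came from the labels, and replicate numbers follow the record order. Named genes were the 10 members, genes of fixed pathway and marker lists that were called or check the tissue, the 5 genes most like Aldh1a1, and those within 1 Mb of it. Members and lists were chosen with earlier results of these data known. Alternatives were RLE factors, no filter, DESeq2 1.42.0, the library number as a term, summed Aldh1a1 and Aldh1a7 counts, and leaving out each library. Positions and lengths came from GENCODE M39, promoters from RefSeq (GRCm38.p6). Without molecular identifiers, reads cannot be counted as independent molecules. Some results for genes of these lists are not reported here.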

Additional observations from a re-analysis of the deposited data

Results flagged for a closer look

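In 120 sets of 4 libraries (10 members in 12 groups), 4 held a library far from the other 3 by Dixon's criterion (3.33%, where chance gives about 5%). Aldh1a2 was at 7.34 CPM in male knockout refed replicate 4, where the other 3 were between 5.78 and 5.96 CPM. Aldh7a1 was at 71.3 CPM in female control refed replicate 2, below 75.4 to 76.1 CPM in the others. Aldh3a2 was at 47.8 CPM in male knockout restricted replicate 3, above 42.6 to 43.2 CPM, and at 44.3 CPM in female control restricted replicate 1, above 39.1 to 39.7 CPM.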

How the results depend on the processing

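All 8 results with summed Aldh1a1 and Aldh1a7 counts kept their direction and their side of the threshold. Of the 32 results recomputed with RLE factors, the log2 differences did so too. The numbers of called genes and members among the 32 stayed equal or near, such as 53 in place of 62 genes for sex. No log2 difference or correlation reversed under any alternative. Without a filter on low counts, the genes called were 3 for genotype, 1 for genotype by sex, 1 for genotype by feeding state, 14 for all 3 factors, 14 for feeding state by sex and 201 for sex, and 0 members were called for restriction. With DESeq2 they were 3 for genotype (Aldh1a1, Ccl21b and Zfp965, the latter pair chosen after their values were seen), 1 for genotype by sex, 7 for all 3 factors, 197 for refed against unrestricted, 1 for feeding state by sex and 144 for sex, and 1 member was called for restriction. With the library number as a term, 1 member was called for refed against restricted, and 19 genes for refed against unrestricted and 478 for sex.

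Leaving out each library gave 0 to 4 genes for all 3 factors together (4 without female knockout restricted replicate 4), 1 to 2 members for restriction, 2 to 4 members for refed against restricted, 82 to 677 genes and 0 to 1 member for refed against unrestricted, and 28 to 1084 genes for sex (28 without male control restricted replicate 2). The 4 members, the 677 and the 1084 genes were those without male control refed replicate 2. The Aldh1a1 difference ranged from -0.84 to -0.69 in unrestricted males and from -0.87 to -0.62 in restricted females, as described with the libraries concerned. The cause was not tested for any of these shifts. No paired analysis was possible because replicates carry no number in the labels and were numbered in the order of the records. Depth limits Aldh1a3 and Aldh1a7, with at most 20 counts per library.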
